A study of Mus musculus with 8 samples.

Results

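The genes described here encode the enzymes that build and cap mucin-type sugar chains, together with related members of the same enzyme families. They were taken from the deposited count table by symbol, as the Galnt, B3gnt, B4galt, B3galt, Gcnt, Fut, St3gal, St6gal, St8sia, C1galt, A4gnt, B4galnt and Chst names, without pseudogenes. The rule found 97 genes of 53170 named genes. Of these, 2 (Galnt6os and St8sia3os) are opposite-strand RNAs and no enzymes, and 14 are Chst genes, which encode sulfotransferases and no glycosyltransferases. RNA was sequenced from organoids grown for 5 days from the hindstomach (glandular stomach) epithelium of embryonic day 18.5 mice. The 4 control libraries have the genotype Shh-Cre, a Cre recombinase under control of the Shh gene, which is active in foregut epithelium. The 4 YAP5SA libraries have the genotype Shh-Cre;YAP5SA, so both groups carry Shh-Cre and the second adds YAP5SA, an active form of the transcriptional coactivator YAP. Since no label ties a library to an embryo or a culture of its own, p-values measure only the spread among libraries, which may be technical. Yap1 itself was at 160.0 ± 7.2 CPM (SD, n = 4) in controls and 153.3 ± 4.2 CPM in YAP5SA and was not called, and whether the counted transcripts include the transgene is not known from the sources used here.

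Mucin-type chains begin when a polypeptide N-acetylgalactosaminyltransferase, a GALNT enzyme, places N-acetylgalactosamine on a serine or threonine of a protein in the Golgi. Core enzymes then add the first branches, other enzymes lengthen these with galactose and N-acetylglucosamine, and fucose, sialic acid, sulfate or a terminal N-acetylglucosamine closes the chain. In the stomach these chains make up most of the mass of the mucus, and surface and gland mucous cells are known for different terminal sugars. Several of the families also act on N-linked chains, glycolipids or proteoglycans, and members that do so are named as such.

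RefSeq promoters (GRCm38.p6) of 4 of the called genes are shown first, as the 250 bases before the annotated start. They are St3gal4 and St3gal6, a pair of enzymes that put sialic acid on the same kind of chain and moved in opposite directions, St8sia6, which had the highest level per kb of the sialyltransferases, and A4gnt, which had no count in any YAP5SA library. Capitals mark matches, on either strand, to 4 short motifs. The letters searched were GGAATG for the TEAD family of factors, which partner YAP. For the GATA factors of the foregut they were AGATAA, for the HNF1 factors of endoderm GTTAAT, and for the stress-responsive AP-1 factors TGANTCA.
St3gal4: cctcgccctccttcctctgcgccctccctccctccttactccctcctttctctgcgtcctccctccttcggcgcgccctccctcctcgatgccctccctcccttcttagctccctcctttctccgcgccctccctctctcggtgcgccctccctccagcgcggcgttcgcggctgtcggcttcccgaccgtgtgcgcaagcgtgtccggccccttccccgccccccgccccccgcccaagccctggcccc
St3gal6: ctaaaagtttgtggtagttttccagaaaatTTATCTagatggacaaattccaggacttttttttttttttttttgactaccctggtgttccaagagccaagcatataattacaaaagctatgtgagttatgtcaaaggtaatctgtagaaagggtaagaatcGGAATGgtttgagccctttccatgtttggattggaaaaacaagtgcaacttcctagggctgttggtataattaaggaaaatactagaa
St8sia6: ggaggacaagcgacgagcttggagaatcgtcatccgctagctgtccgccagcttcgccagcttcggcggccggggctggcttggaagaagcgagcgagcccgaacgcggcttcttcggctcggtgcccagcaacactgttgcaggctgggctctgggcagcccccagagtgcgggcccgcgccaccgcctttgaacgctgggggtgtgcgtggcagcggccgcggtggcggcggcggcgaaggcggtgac
A4gnt: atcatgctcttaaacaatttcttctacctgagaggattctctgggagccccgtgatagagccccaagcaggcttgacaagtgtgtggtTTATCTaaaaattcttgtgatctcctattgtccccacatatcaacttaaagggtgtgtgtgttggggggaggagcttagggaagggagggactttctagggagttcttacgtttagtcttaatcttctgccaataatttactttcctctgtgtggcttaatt
The St3gal4 stretch is chr9:35116865-35117114 and the St8sia6 stretch is chr2:13793521-13793770, both on the minus strand, and neither held any of the 4 motifs. The St3gal6 stretch, chr16:58524254-58524503 on the minus strand, is the more upstream of 2 annotated starts and held the TEAD letters 88 bases and the GATA letters 220 bases before the start. The A4gnt stretch, chr9:99612252-99612501 on the plus strand, held the GATA letters 162 bases before the start. Over windows of 300 bases (250 before to 50 after the start), the TEAD letters stood in 14.7% of all 32851 RefSeq windows, in 2 of 18 windows of members that rose and in 4 of 22 windows of members that fell. The GATA letters stood in 11.2% of all windows, in 1 of 18 and in 3 of 22. The HNF1 letters (7.1% of all windows) were in 1 of 18 and 0 of 22, and the AP-1 letters (7.81%) in 1 of 18 and 1 of 22. A match describes these letters and is not a bound site. Promoter windows were found for 43 of the 57 tested members, some with several starts.

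Total counts per library lay between 13646225 and 19668033. The organoids had epithelial markers throughout (summed level of Epcam, Cdh1, Krt8, Krt18 and Krt19 of 6147 to 7977 CPM, counts scaled to a common library total), while 9 glandular stomach markers summed to 2218 to 2394 CPM in controls and to 71.6 to 76.4 CPM in YAP5SA. Of these 9 genes 8 fell, with Muc6 and Cldn18 among them, and Sox2 rose, where 25.5% of all tested genes were called lower. Muc6, Gkn1 and Gkn2 passed the filter on low counts through the controls alone, so the direction of their falls was fixed beforehand. The 7 mesenchymal markers summed to 4.23 CPM at most, and none was counted often enough to test. The 4 endothelial markers summed to 6.5 to 13.7 CPM in controls, nearly all of it Tek, and to 0.0644 to 0.842 CPM in YAP5SA. In YAP5SA library 1, the highest of its group, Tek was at 0.388 and Pecam1 at 0.324 CPM. The defining Pecam1 and Cdh5 were at no more than 0.194 CPM on average. The 4 immune markers summed to 18.8 to 38.2 CPM in controls and to 9.19 to 10.4 CPM in YAP5SA, most of it Cd68, while Csf1r rose at a low level and the defining Ptprc and Cd3e averaged at most 0.514 CPM. Csf1r passed the filter on low counts through YAP5SA alone, so its direction was fixed beforehand. The 5 squamous markers summed to 95 to 146 CPM in controls and 895 to 1014 CPM in YAP5SA, nearly all of it Krt4, with Krt5, Krt14 and Trp63 at no more than 0.539 CPM on average. The 5 intestinal markers summed to 412 to 532 and to 14.1 to 19.8 CPM, from Vil1 and Apoa1, with Cdx1 and Cdx2 at 0 in every library. The part of these markers in the results was not tested. Sex coincided with genotype: Xist ranged from 675.6 to 1049 CPM in controls and from 0.412 to 2.76 CPM in YAP5SA, and the Y-linked Eif2s3y from 0 to 0.108 and from 93.3 to 110.7 CPM. Genotype and sex therefore cannot be told apart for any gene below. In bulk RNA, fewer cells of a type and less RNA per cell cannot be told apart either.

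Of the 97 members, 57 were counted often enough to test, 32 had counts too low to test, and 8 had no count in any library. Of the 57 tested members, 17 rose and 26 fell in YAP5SA and 14 were not called (edgeR quasi-likelihood test, adjusted p under 0.05 over all tested genes). This was 75.4% called, where 49.1% of all 14058 tested genes were called (23.6% higher and 25.5% lower). A change of at least 2-fold was called for 25 members, 8 higher and 17 lower, which is 43.9% of the tested members beside 13.8% of all tested genes. No overlap between the groups was seen in 39 of the 57 tested members, beside 45.7% of all tested genes. The median log2 fold change was -0.22 over the tested members and 0.00 over all tested genes. These shares describe members that passed a filter on low counts. A4gnt, Chst11, Chst15 and St6galnac2 passed through the controls alone, since each had fewer than 10 counts in every YAP5SA library. They had to be lower there to be tested. The same held for B4galt2, with 11 to 15 counts per library in controls and 2 to 10 in YAP5SA. The cutoff of the filter scales with library size, and the 10 counts of YAP5SA library 4 fell below it. Galnt14, St6galnac4, Fut4, St3gal2 and St6gal1 each had YAP5SA libraries with fewer than 10 counts, below the cutoff as well. They reached the 4 libraries that the filter asks for only with their controls, so the filter favoured their falls.

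**Figure D1:**
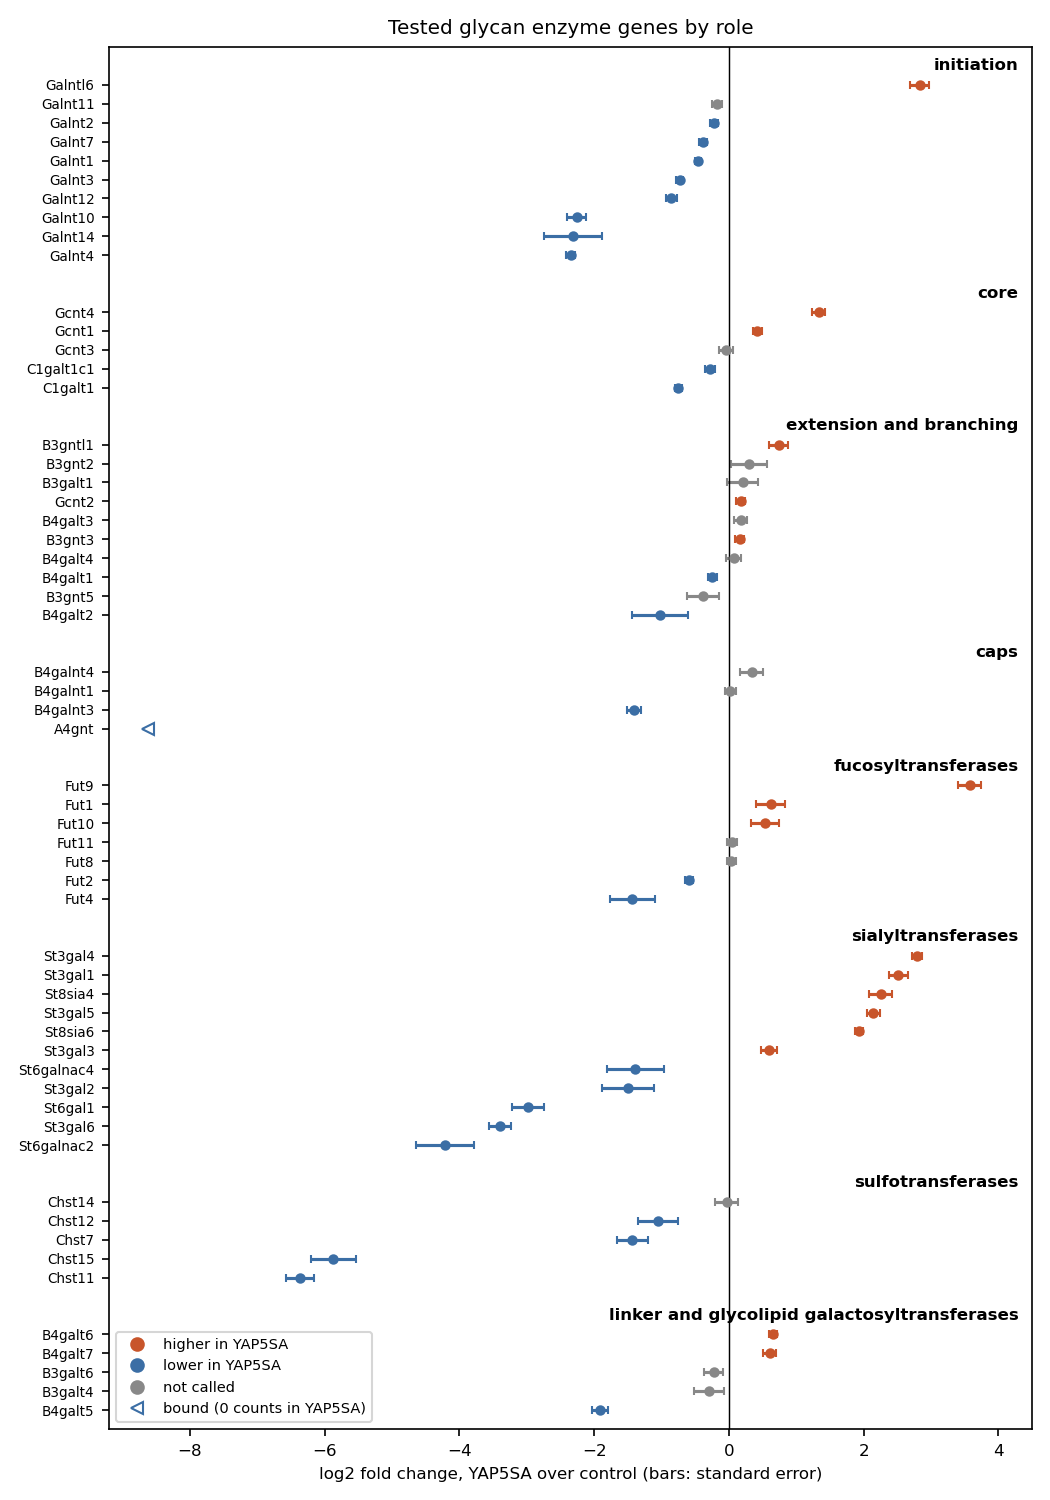
Log2 fold change of YAP5SA over control (x axis) for the 57 tested members, grouped by role (y axis), with bars for the standard error. Red points were higher, blue lower and grey not called, the open triangle gives A4gnt at its bound, and all 11 sialyltransferase genes are coloured.

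Sialyltransferases, which place sialic acid at chain ends, were the family with calls throughout: all 11 tested genes of 20 passed the test, 6 higher and 5 lower, and 10 of them changed at least 2-fold. This was 100% called and 90.9% called at 2-fold or more, beside 49.1% and 13.8% of all tested genes. Of those that fell, St6galnac2 passed the filter through the controls alone, and St3gal2, St6gal1 and St6galnac4 needed their controls to pass it. Among the enzymes that can cap N-acetyllactosamine, the repeating galactose and N-acetylglucosamine unit, St3gal4 and St3gal6 moved in opposite directions. St3gal4 had 16.0, 13.2, 13.3 and 14.1 CPM in control libraries 1 to 4 and 96.3, 92.2, 99.8 and 100.9 CPM in YAP5SA libraries 1 to 4. Every YAP5SA library stood above every control, and the fitted rise was 6.9-fold (log2 fold change 2.79 ± 0.07 SE, adjusted p = 1.98e-15, edgeR). St3gal6 had 53.7, 60.3, 58.5 and 56.0 CPM in controls and 6.21, 4.58, 3.15 and 7.66 CPM in YAP5SA. All YAP5SA libraries lay far below the controls, a 10.6-fold fall (log2 fold change -3.40 ± 0.17 SE, adjusted p = 9.42e-10, edgeR). Levels of different genes were set side by side per kb of exon. On that scale St3gal6 stood at 9.26 ± 0.467 (SD, n = 4) and St3gal4 at 4.83 ± 0.445 CPM per kb in controls, and in YAP5SA St3gal4 stood at 33.3 ± 1.35 and St3gal6 at 0.875 ± 0.317 CPM per kb. Per the GENCODE M21 annotation, 26% of the exon bases of St3gal6 overlap exons of Dcbld2 on the opposite strand, and reads of both cannot be told apart without strand. Dcbld2 was at 170.0 ± 18.8 and 189.7 ± 7.7 CPM and was not called. St3gal4 shares 14.1% of its exon bases with the antisense gene 4930581F22Rik, which rose as well, from 2.07 ± 0.16 to 4.04 ± 0.76 CPM (log2 fold change 0.97).

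St8sia6, which adds a further sialic acid to sialylated O-linked chains, had the highest level per kb of the family in both groups. Its CPM were 154, 147, 141 and 156 in controls and 593, 576, 530.3 and 580.2 in YAP5SA. The groups were far apart and the rise was 3.81-fold (log2 fold change 1.93 ± 0.05 SE, adjusted p = 3.91e-15, edgeR). Of the summed level per kb of the 11 tested sialyltransferase genes, St8sia6 took 44.0% ± 1.04 in controls and 55.1% ± 1.53 in YAP5SA. In the same sum St3gal4 went from 10.9% ± 0.96 to 24.7% ± 1.26 and St3gal6 from 20.9% ± 1.44 to 0.642% ± 0.210 (SD, n = 4).

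St3gal1, which sialylates the galactose of core 1 and so competes with branching, had 2.9, 4.28, 3.87 and 3.15 CPM in controls and 22.8, 18.1, 18.7 and 22.7 CPM in YAP5SA. Low in every control, it was 5.72-fold higher in YAP5SA (log2 fold change 2.52 ± 0.14 SE). St3gal2, which uses core 1 and glycolipids, went the other way from a low level, with 0.947, 1.9, 1.58 and 2.93 CPM in controls and 0.971, 0.718, 0.451 and 0.412 CPM in YAP5SA. Control 1 lay below YAP5SA 1, so the groups overlapped although the fall was called (log2 fold change -1.50 ± 0.38 SE, adjusted p = 0.00329, edgeR). St3gal3, which prefers chains of the other galactose linkage, rose 1.51-fold (10.9 ± 1.6 to 16.4 ± 1.6 CPM).

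The glycolipid enzyme St3gal5, which makes the ganglioside GM3, had 9.41, 10.5, 8.55 and 10.7 CPM in controls and 44.3, 41.1, 40.6 and 46.6 CPM in YAP5SA. All 4 YAP5SA libraries were higher, by 4.43-fold. St8sia4, one of the polysialic acid synthases, had 3.22, 2.38, 2.39 and 3.15 CPM in controls and 10.6, 15.3, 11.1 and 15.5 CPM in YAP5SA, a 4.76-fold rise without overlap. Per kb, St3gal3 (3.94 ± 0.56) and St3gal5 (3.74 ± 0.38) did not differ beyond their spread in controls, while in YAP5SA St3gal5 stood at 16.5 ± 1.09 and St3gal3 at 5.93 ± 0.59 CPM per kb.

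Of the 8 St6gal and St6galnac genes, whose enzymes use the other sialic acid linkage, to carbon 6 of the sugar below, 3 were tested and these 3 fell. Over all tested genes 25.5% were called lower. All 3 needed their controls to pass the filter, so their shared direction was favoured by it. St6gal1, which acts mainly on N-linked chains, had 6.13, 6.23, 7.08 and 6.08 CPM in controls and 0.971, 0.442, 0.708 and 1.12 CPM in YAP5SA. It was 7.88-fold lower, with no overlap (log2 fold change -2.98 ± 0.24 SE). St6galnac2, which sialylates the first N-acetylgalactosamine of core 1 chains, had 5.68, 3.9, 3.61 and 3.0 CPM in controls and 0.129, 0.331, 0.386 and 0 in YAP5SA (log2 fold change -4.21 ± 0.43 SE). It passed the filter through the controls alone. St6galnac4, which makes disialylated core 1, fell from 1.1 ± 0.445 to 0.401 ± 0.175 CPM (adjusted p = 0.0105, edgeR), a call that a threshold of 0.01 does not keep. St6galnac1, whose product is sialyl-Tn, had no count in any library, and St6galnac6 had 23 counts over the controls and 27 over YAP5SA, too few to test.

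**Figure D2:**
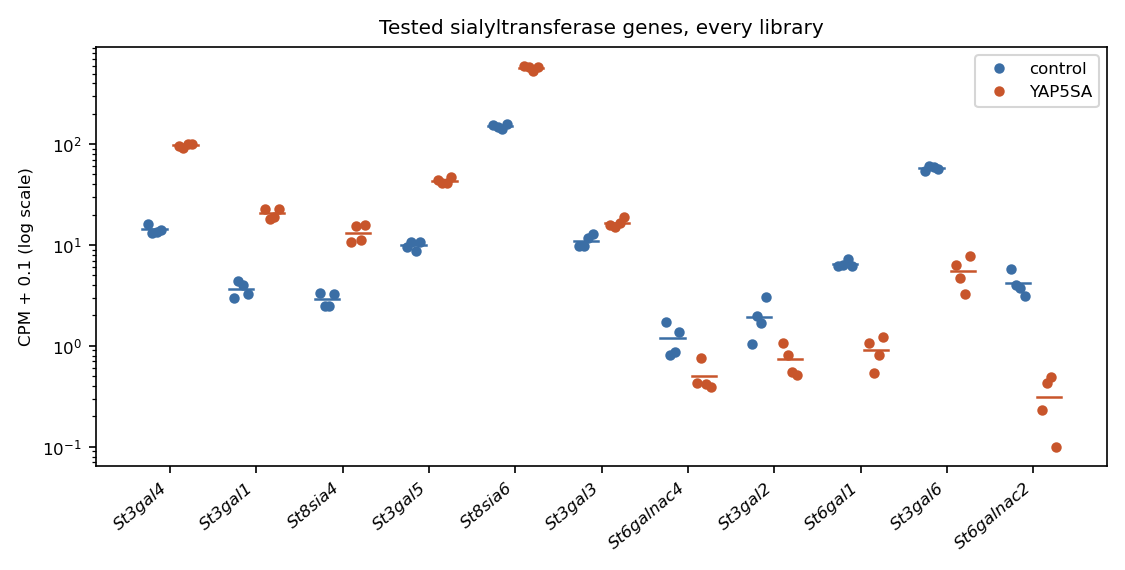
CPM plus 0.1 on a log axis for the 11 tested sialyltransferase genes, ordered by fold change, with 1 point per library (4 control, blue, and 4 YAP5SA, red) and a line at each group mean. St3gal4 rose to 97.3 CPM on average and St3gal6 fell to 5.4 CPM, and St3gal2 is the gene whose groups overlap.

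Genes of chain initiation mostly fell. Of 19 Galnt genes, 10 were tested, and 8 fell, 1 rose (Galntl6) and 1 was not called (Galnt11, adjusted p = 0.0503, edgeR), with a median log2 fold change of -0.60. This was 90% called, beside 49.1% of all tested genes. Galnt4, an isoenzyme known for adding sugar to chains that already carry some, had 116, 105, 113 and 111 CPM in controls and 19.9, 22.3, 23.4 and 21.8 CPM in YAP5SA. The YAP5SA libraries were tightly grouped below all controls, 5.09-fold lower (log2 fold change -2.35 ± 0.07 SE, adjusted p = 4.31e-15, edgeR). Galnt4 shares 8.3% of its exon bases with Poc1b on the same strand, whose log2 fold change was -0.34. Galnt10, another isoenzyme that prefers partly glycosylated chains, had 17.2, 17.1, 14 and 16.1 CPM in controls and 3.37, 2.54, 3.73 and 3.83 CPM in YAP5SA. It was 4.78-fold lower in YAP5SA without overlap. Galnt14 had 2.02, 2.22, 2.29 and 2.33 CPM in controls and 0.583, 0.166, 0.0644 and 0.942 CPM in YAP5SA, which put every YAP5SA library below the controls (log2 fold change -2.31 ± 0.43 SE). Without YAP5SA library 4, the highest of its group, the log2 fold change of Galnt14 was -3.02. Galnt14 needed its controls to pass the filter.

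Galntl6, a GALNT family member, was the exception, with 2.02, 3.09, 2.29 and 2.93 CPM in controls and 20.1, 17.7, 16.9 and 18.8 CPM in YAP5SA (7.13-fold, log2 fold change 2.83 ± 0.14 SE). The antisense gene BC030500, which shares 4.5% of the exon bases of Galntl6, rose as well, from 0.843 ± 0.254 to 11.8 ± 1.5 CPM, and their reads cannot be told apart without strand. The abundant isoenzymes fell by less than 2-fold: Galnt3 1.66-fold (241 ± 5.6 to 145 ± 7.4 CPM), Galnt12 1.81-fold, Galnt1 1.38-fold, Galnt7 1.3-fold and Galnt2 1.17-fold. Per kb, Galnt3 was first in both groups (55.1 ± 1.29 and 33.2 ± 1.70). Galnt4 stood above Galnt12 in controls (21.8 ± 0.94 against 15.1 ± 1.19 CPM per kb) and below both Galnt12 and Galnt11 in YAP5SA (4.29 ± 0.29 against 8.34 ± 0.38 and 7.01 ± 0.51). Its share of the summed level per kb of the 10 genes was 11.2% ± 0.46 in controls and 3.39% ± 0.28 in YAP5SA.

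Core enzymes divided between core 1 and its branch. C1galt1, the core 1 synthase, fell 1.68-fold (278 ± 12.8 to 165 ± 6.3 CPM, log2 fold change -0.75 ± 0.05 SE), and its chaperone C1galt1c1 (Cosmc), which is X-linked, fell 1.22-fold (74.4 ± 6.7 to 61.3 ± 3.8 CPM). The core 2 branching enzyme Gcnt1 rose 1.34-fold (98.9 ± 8.0 to 132 ± 7.9 CPM). Gcnt4, a further core 2 enzyme, had 12.9, 13.1, 10.7 and 11.2 CPM in controls and 33.8, 27.5, 30.1 and 30.0 CPM in YAP5SA. Its groups were apart by 2.53-fold (log2 fold change 1.34 ± 0.10 SE). The mucin-type branching enzyme Gcnt3 had 61.3 ± 6.6 and 59.3 ± 9.8 CPM and was not called (log2 fold change -0.05 ± 0.11 SE). The core 3 synthase B3gnt6 was near absent, with 1 and 3 counts over the control and YAP5SA groups.

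**Figure D3:**
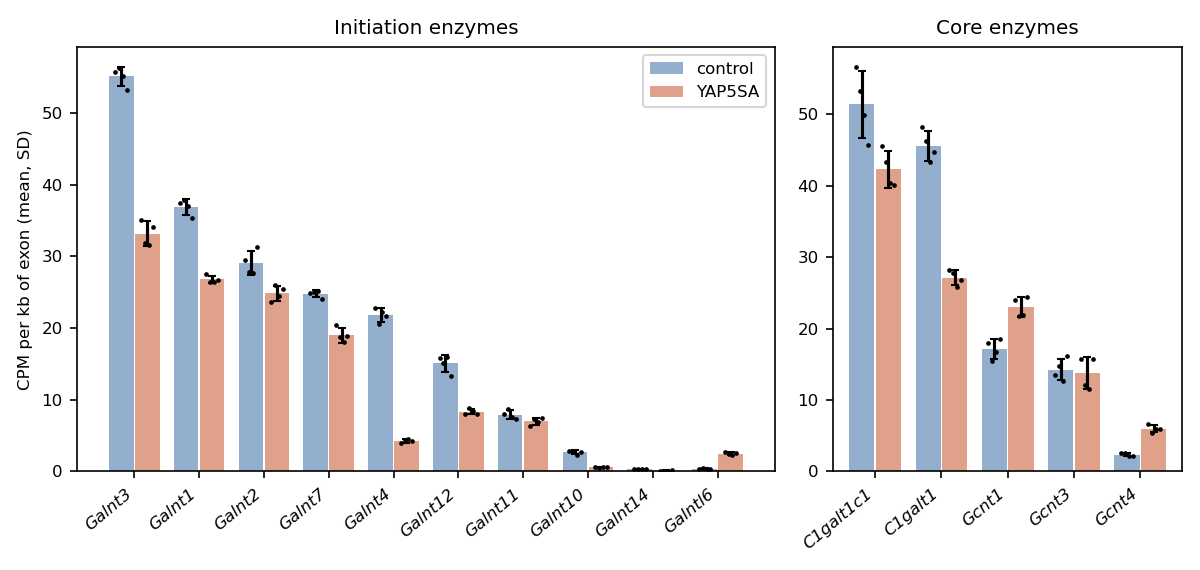
Level in CPM per kb of exon (y axis, from 0) of the tested initiation and core genes (x axis). Bars are means of 4 control (blue) or 4 YAP5SA (red) libraries with SD, and dots are libraries; Galnt4 drops from the fifth to the seventh place among initiation genes, and Gcnt1 and Gcnt4 are the core genes that rose.

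Of the 17 chain extension and branching genes 10 were tested, and 3 rose, 2 fell and 5 were not called, with a median log2 fold change of 0.17. This was 50% called, near the 49.1% of all tested genes. B3gnt3, which extends core 1 and was the highest of the group per kb, had 168 ± 17.2 and 187 ± 4.9 CPM, with overlapping groups (log2 fold change 0.16 ± 0.06 SE, adjusted p = 0.0479, edgeR). That call was lost in 9 of 16 other settings, among them the fits without any 1 library except control 4. The main galactosyltransferase B4galt1 fell 1.19-fold, the I-branching enzyme Gcnt2 rose 1.13-fold (76.1 ± 1.4 to 86.0 ± 8.7 CPM, adjusted p = 0.0361, edgeR), and B3gntl1 rose 1.67-fold from a low level. The call of Gcnt2 was lost in 7 other settings: with the replicate block, at a threshold of 0.01, and without control 1, control 2, control 3, YAP5SA 1 or YAP5SA 3. B4galt2 averaged 0.81 ± 0.104 and 0.389 ± 0.193 CPM, and its call (adjusted p = 0.0483, edgeR) was lost in 12 other settings, among them the fits without any 1 library except YAP5SA 4. It passed the filter through the controls alone.

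Among the cap genes, A4gnt disappeared from the counts, which measure RNA and no sugar. Its enzyme places the terminal N-acetylglucosamine on chains of gland mucous cells. A4gnt had 26.0, 17.7, 15.8 and 11.5 CPM in controls and 0 counts in all 4 YAP5SA libraries, and passed the filter through the controls alone. Control 1 was highest and control 4 lowest, and the level in YAP5SA was at least 393-fold lower, with its group set to a floor of 3 pooled counts. B4galnt3, which makes the N-acetylgalactosamine-capped unit LacdiNAc, had 22, 23.1, 22.8 and 27.1 CPM in controls and 9.39, 8.61, 7.92 and 9.78 CPM in YAP5SA. All YAP5SA libraries were below the controls (2.65-fold, log2 fold change -1.41 ± 0.10 SE). The ganglioside enzyme B4galnt1 was not called (33.6 ± 3.0 and 34.1 ± 1.6 CPM), nor was B4galnt4.

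Among fucosyltransferases, 7 of 8 genes were tested, and 3 rose, 2 fell and 2 were not called. This was 71.4% called, beside 49.1% of all tested genes. Fut9, which makes the Lewis X structure, had 1.01, 1.35, 1.48 and 1.58 CPM in controls and 18.6, 18.1, 13.5 and 14.5 CPM in YAP5SA. It rose 11.9-fold (log2 fold change 3.57 ± 0.17 SE, adjusted p = 6.2e-12, edgeR), the largest rise of any tested member. Fut4, which also adds fucose to N-acetylglucosamine, went down, with 2.27, 1.57, 1.78 and 1.88 CPM in controls and 0.971, 0.331, 0.966 and 0.53 in YAP5SA (log2 fold change -1.43 ± 0.34 SE). Fut4 needed its controls to pass the filter. Fut2, the secretor enzyme that puts fucose on the galactose of mucous epithelia, fell 1.5-fold from 85.9 ± 4.6 to 57.1 ± 0.8 CPM. Its paralogue Fut1 rose 1.54-fold at a low level (2.26 ± 0.57 to 3.45 ± 0.34 CPM) with overlapping groups, a call lost in 6 of 16 other settings, among them the fits without control 2, control 3, YAP5SA 1, YAP5SA 2 or YAP5SA 4. Fut8, the core fucosyltransferase of N-linked chains, was not called (112 ± 12.7 and 114 ± 4.0 CPM). Per kb, Fut2 (15.8 ± 0.84) and Fut8 (14.1 ± 1.61) did not differ beyond their spread in controls, and in YAP5SA Fut8 (14.5 ± 0.51) stood above Fut2 (10.5 ± 0.15).

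The sulfotransferases that were tested act mainly on chondroitin and dermatan chains of proteoglycans and not on mucins. Of 14 Chst genes, 5 were tested, and 4 fell, none rose and Chst14 was not called (6.02 ± 1.46 and 5.82 ± 0.49 CPM). This was 80% called, beside 49.1% of all tested genes. Chst11 and Chst15 passed the filter through the controls alone, so that the direction of their falls was fixed beforehand. Chst11, a chondroitin 4-sulfotransferase, had 15.9, 16.5, 16.0 and 19.1 CPM in controls and 0.194, 0.11, 0.257 and 0.236 in YAP5SA, 82.3-fold lower (log2 fold change -6.36 ± 0.21 SE). Chst15, which makes the doubly sulfated chondroitin unit, had 5.3, 4.71, 4.48 and 5.03 CPM in controls and 0.129, 0.0552, 0.0644 and 0.0589 in YAP5SA (log2 fold change -5.87 ± 0.34 SE). Both were close to absent from every YAP5SA library. Chst7, which is X-linked and can also use N-acetylglucosamine, had 5.05, 4.82, 3.92 and 3.53 CPM in controls and 1.36, 1.93, 2.06 and 1.06 CPM in YAP5SA, 2.7-fold lower. Chst12, the second chondroitin 4-sulfotransferase, was more variable, with 2.27, 3.68, 2.04 and 5.03 CPM in controls and 1.29, 1.16, 1.8 and 1.94 in YAP5SA (adjusted p = 0.00732, edgeR, log2 fold change -1.05 ± 0.30 SE). Its lowest control lay just above its highest YAP5SA library. The N-acetylglucosamine 6-sulfotransferases of mucin-like chains, Chst2, Chst4 and Chst5, were too low to test. Chst2, the most counted of them, averaged 1.01 CPM in the controls and 0.115 in YAP5SA.

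The remaining galactosyltransferases serve glycolipids and the proteoglycan linker, and 2 of 5 rose and 1 fell. This was 60% called, not far from the 49.1% of all tested genes. The 2 lactosylceramide synthases parted. B4galt5 had 41.4, 38.4, 38.2 and 44.7 CPM in controls and 8.61, 11.3, 14 and 9.36 CPM in YAP5SA, 3.75-fold lower with no overlap (log2 fold change -1.91 ± 0.12 SE). B4galt6, already the more abundant of the pair per kb (38.4 ± 2.62 against 9.44 ± 0.71 in controls), rose 1.58-fold from 223 ± 15.2 to 351 ± 4.6 CPM. The linker enzyme B4galt7 rose 1.52-fold (10.7 ± 0.96 to 16.1 ± 1.12 CPM).

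**Figure D4:**
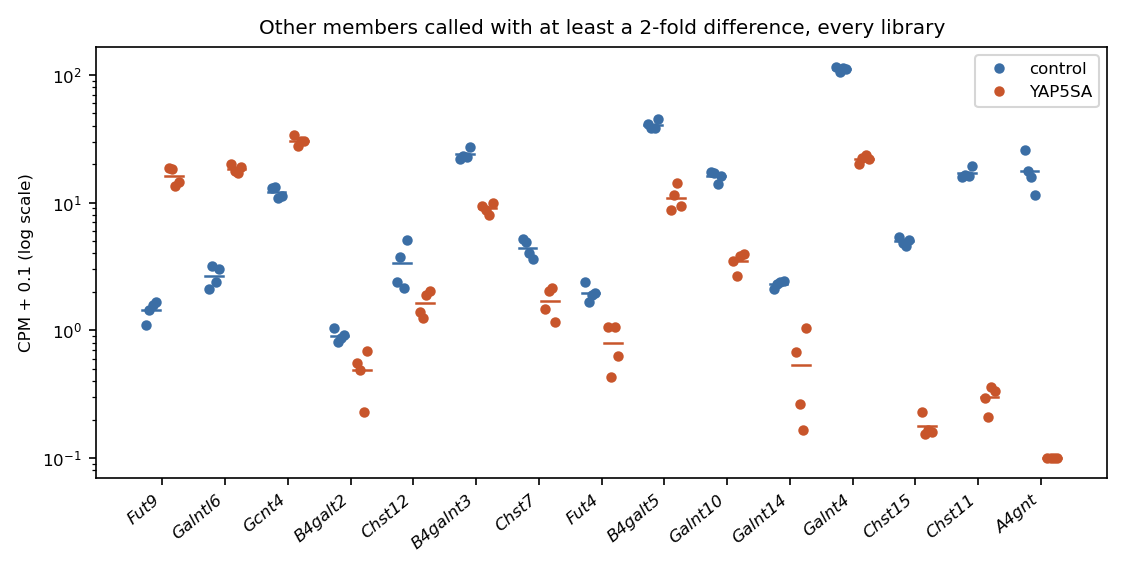
CPM plus 0.1 on a log axis for the 15 members outside the sialyltransferases that were called with a difference of at least 2-fold, with 1 point per library (4 control, blue, and 4 YAP5SA, red) and a line at each group mean. Fut9, Galntl6 and Gcnt4 rose and the other 12 fell, with A4gnt at 0 counts in all YAP5SA libraries.

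Ratios of counts of 2 genes within a library do not depend on normalization, and 4 of 6 listed pairs could be formed. The log2 ratio of St3gal1 to Gcnt1, the sialylation against the branching of core 1, was -4.80 ± 0.37 in controls and -2.69 ± 0.09 in YAP5SA (SD, n = 4), a difference of 2.11 with an exact permutation p of 0.0286. The ratio of Fut2 to Fut1 fell by 1.22, from 5.26 ± 0.33 to 4.04 ± 0.14. The ratio of Gcnt3 to Gcnt1 fell by 0.48, from -0.69 ± 0.17 to -1.17 ± 0.16. The ratio of A4gnt to Gcnt3 was -1.85 ± 0.59 in controls and -10.92 ± 0.25 in YAP5SA, where the latter is set by the 0.5 counts added to both genes. A4gnt passed the filter through the controls alone, so the separation of that ratio was fixed beforehand and its test shows nothing. In the other 3 ratios the libraries of the groups did not overlap. Each gave the two-sided exact permutation p of 0.0286, which is the smallest that 4 against 4 libraries allow, and 0.0286 after Benjamini-Hochberg adjustment over the 4 computed.

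**Figure D5:**
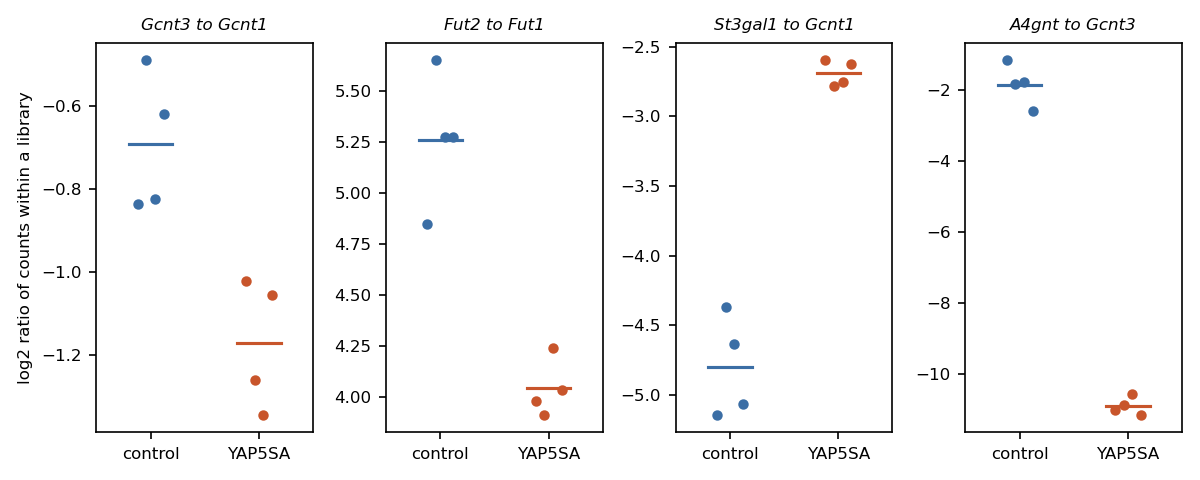
Log2 ratio of counts within each library (y axis) for 4 gene pairs, with 1 point per library (4 control, blue, and 4 YAP5SA, red) and a line at each group mean; the y axes differ. The St3gal1 to Gcnt1 ratio rose and the Fut2 to Fut1 and Gcnt3 to Gcnt1 ratios fell without overlap, while the A4gnt to Gcnt3 ratio in YAP5SA is set by the 0.5 counts added.

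Other genes of the pathway were read from 5 lists. The share called was 85.7% of tested mucins, 73.7% of donor synthesis genes and 62.5% of Golgi transporters. It was 61.5% of glycan breakdown genes and 100% of the 3 tested other terminal transferases, beside 49.1% of all tested genes. Of the mucins, the proteins that carry these chains, 7 of 12 were tested, and 5 rose and 1 fell. Muc6, the gland mucin, fell (log2 fold change -7.50), and Muc5b and Muc4 rose (8.45 and 3.91). Muc6 had 2 to 8 counts per library in YAP5SA, and Muc5b had 0 or 1 in controls. Each of these 2 passed the filter through 1 group alone, so its direction was fixed beforehand. Muc5b averaged 0.0263 ± 0.0304 CPM in the controls and 13.0 ± 1.9 in YAP5SA. Muc1 rose from 341 ± 41.4 to 477 ± 11.8 CPM, Muc2 and Muc20 rose at low levels, and Muc5ac was not called. Muc2 and Muc20 needed their YAP5SA libraries to pass the filter. Of 19 tested genes that make sugar nucleotides and the sulfate donor PAPS, 10 fell and 4 rose, with a median log2 fold change of -0.28. Papss2, a PAPS synthase, fell from 12.2 ± 2.5 to 2.81 ± 0.57 CPM, and Gmds, the first enzyme of GDP-fucose synthesis from mannose, from 97.7 ± 2.9 to 44.4 ± 4.5 CPM. Papss1 and Galk1 rose, both with a log2 fold change of 0.52. Of 8 Golgi transporters of these donors, 5 fell and none rose. Among them Slc35a1 and Slc35b3 had the smallest changes (log2 fold change -0.28 and -0.22). Slc35d2 fell from 13.8 ± 0.8 to 5.96 ± 0.76 CPM and the UDP-N-acetylglucosamine transporter Slc35a3 from 253 ± 22.3 to 158 ± 8.7 CPM. Of 13 genes of glycan breakdown, 6 fell and 2 rose. The sialidase genes Neu3 and Neu2 fell (log2 fold change -1.44 and -1.21), and Neu2 needed its controls to pass the filter. Of 6 other terminal transferases, all 3 that were tested fell, with Ggta1, the alpha-galactosyl epitope enzyme, at 30.4 ± 1.7 CPM in the controls and 1.05 ± 0.25 in YAP5SA. B3galnt1, a globoside synthase, averaged 1.47 ± 0.10 CPM in the controls and had 3 counts over the YAP5SA libraries (log2 fold change -4.80), so that it passed the filter through the controls alone. B3galnt2 fell from 62.6 ± 4.6 to 35.0 ± 1.4 CPM.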

How the data were processed

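The deposited values are read counts per gene in 8 libraries, whole numbers that the authors did not normalize. The labels' protocols give paired-end reads of 150 bp from total RNA. The submitters' processing notes name the build mm9, with HISAT2 2.0.1, HTSeq 0.6.1 and cutadapt as tools. Annotation release, counting options and strand handling were for these counts not given in the sources used here. Rows without a gene name (0.19% to 0.221% of counts) were left out and rows sharing a symbol were summed (among members, St6galnac2). Genes were kept by filterByExpr (minimum count 10, minimum total 15), scaled by TMM and fitted in R 4.3.3 by the robust quasi-likelihood test of edgeR 4.0.16, with genotype as the only term and with Benjamini-Hochberg adjustment over 14058 genes and calls under 0.05. SE is the log2 fold change over the square root of F. CPM use TMM-scaled library sizes and are given as mean ± SD of 4 libraries. Exon lengths and overlaps come from GENCODE M21 by symbol, another build than the counts, so values per kb are approximate. Groups with 0 counts were set to a floor of 3 counts, and such bounds cover counting error only. No 2 libraries of a group agreed within sampling noise (chi-square per degree of freedom of at least 3.6). Values in every library were given for members called with a log2 fold change of at least 1 in size and an average log2 CPM of at least 0. Group values were given for other called members with such a change, the member with the highest average of each role, X-linked members and members of the ratios, and other lists were named by their 2 highest and 2 lowest called genes, except that the genes of glycan breakdown that rose are not reported here by name. Others (Galnt and St3gal3 isoenzymes, B4galt1, B4galt7, B3gntl1, B4galnt4, Gcnt2, St6galnac1, B3gnt6, Chst2, Chst14) were named after their values were seen. Members and lists were chosen with earlier results of these data known. Alternatives were other scalings, filters and thresholds, DESeq2 1.42.0, a replicate block and leaving out each library.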

Additional observations from a re-analysis of the deposited data

Results flagged for a closer look

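In 3 of 79 groups of 4 libraries, over the named members and the ratios, 1 library stood apart from the other 3 (its gap to the nearest library, over the range of the group, was above the critical value of Dixon's test, which chance gives in about 1 in 20 groups). For Chst15 in YAP5SA, library 1 was highest at 0.129 CPM, with the others between 0.0552 and 0.0644 CPM. For St6gal1 in controls, library 3 was highest at 7.08 CPM, with the others between 6.08 and 6.23 CPM. For St6galnac4 in YAP5SA, library 2 was highest at 0.663 CPM, with the others between 0.294 and 0.324 CPM. The 3 flags fell in 3 different libraries, and the Chst15 and St6galnac4 values rest on few reads.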

How the results depend on the processing

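The 36 members named by rule were recomputed under 16 other settings. Of 573 values, 545 kept their side of the threshold, 28 kept their direction and lost the call, and no called value reversed. Members that were not called could change sign near 0. Over the settings the log2 fold change ran from -0.0311 to 0.0772 for B4galnt1, from -0.00658 to 0.0997 for Fut8 and from -0.123 to 0.0245 for Gcnt3. Among these the lost calls were those of B4galt2 (12 settings, highest adjusted p 0.146), B3gnt3 (9, 0.179), Fut1 (6, 0.0891) and St6galnac4 (1), all by edgeR or DESeq2. B4galt2, St3gal2 and St6galnac4 were too low to test under the stricter filter. Of the other called members, Gcnt2 lost its call in 7 settings and Fut10 in 6. Of the 43 called members, DESeq2 called 41 and a threshold of 0.01 kept 37, and between 39 and 45 members were called without 1 library, none in the opposite direction. Counts by role moved where they were small. Extension genes higher were 1 at an adjusted p under 0.01 and 1 to 4 without 1 library, and extension genes lower were 1 with DESeq2, with no filter, with the stricter filter, with total counts alone, with the replicate block and at 0.01, and 1 to 2 without 1 library. Fucosyltransferases higher were 1 at 0.01 and 1 to 3 without 1 library. Caps higher were 1 with no filter, sialyltransferases lower were 3 with the stricter filter, and linker and glycolipid genes lower were 1 to 2 without 1 library. The cause was not tested, other than that fewer genes were tested under the stricter filter. Samples with equal numbers did not deviate together (correlations of -0.0989 to 0.0956, and 1 of 8 samples correlated best with its own number). No label says whether equal numbers mark a shared litter, batch or day. With the replicate block 41 members were called, and the 4 ratio differences (-9.07 for A4gnt to Gcnt3, -1.22 for Fut2 to Fut1, -0.48 for Gcnt3 to Gcnt1 and 2.11 for St3gal1 to Gcnt1) had an adjusted p of 0.125 by an exact sign-flip permutation, the smallest that 4 pairs allow. Scaling by total counts alone turned the balance over all genes to 3635 higher and 3282 lower and kept 42 of the 43 member calls.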

Other observations

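Among members too low to test, B3galt5, a galactosyltransferase of type 1 chains, was without counts in controls and had 0.971, 0.387, 0.708 and 0.824 CPM in YAP5SA libraries 1 to 4, at least 16.0-fold higher with the controls set to a floor of 3 pooled counts. The ganglioside GD3 synthase gene St8sia1 had no count in controls and 18 counts over the YAP5SA libraries, at least 6.11-fold higher. St6gal2, the second enzyme that places sialic acid in the linkage of St6gal1, had 34 counts over the controls and 2 over YAP5SA, a ratio of pooled levels of 16.7 (95% counting interval 4.28 to 143). Galnt18 averaged 0.746 ± 0.416 CPM in the controls and 0.137 ± 0.109 in YAP5SA. With no filter on low counts, these 4 genes together with B4galnt2 and Chst2 were called by edgeR as well.

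The genes of N-linked chain trimming and branching, listed for comparison, divided into 7 lower, 3 higher and 1 not called of 11. This was 90.9% called, beside 49.1% of all tested genes. Mgat5, which makes the branch that carries long lactosamine chains, fell from 115 ± 11.6 to 37.3 ± 1.5 CPM (log2 fold change -1.62), and Mgat1, which starts the first branch, from 38.8 ± 2.7 to 26.5 ± 0.8 CPM (-0.55). Mgat3, which adds the bisecting N-acetylglucosamine, rose from 168 ± 19.1 to 331 ± 24.7 CPM (0.98), and the mannosidase gene Man1c1 rose from 9.09 ± 1.02 to 22.7 ± 2.3 CPM (1.33).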
